A study of Mus musculus with 16 samples.

Results

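RNA from the dorsal hippocampus of mice that drank caffeine was compared between 4 mice trained in the Morris water maze (learning caffeine mice 22, 27, 30 and 40) and 4 mice taken from their home cage (home cage caffeine mice 2, 9, 14 and 17). These are 8 of the 16 libraries of the series, chosen by their group labels. The other 8 mice drank water and formed the same pair of groups (learning water and home cage water, 4 each), and they enter here only where the response to training under caffeine is set beside that under water. All mice were male C57BL6/J mice, aged 8 to 9 weeks when treatment began. Caffeine was given in the drinking water at 0.3 g/L for 2 weeks to both groups compared here, so the comparison is one of training and not of caffeine. Learning mice had been habituated to the pool, had searched for a hidden platform over 3 days, and were killed 1 hour after the last session. Home cage mice rested and did not swim, so spatial learning, swimming, handling and a stay in cool water cannot be told apart as sources of a difference. Each library is 1 mouse and holds the polyadenylated RNA of a piece of tissue with all its cell types. Fewer cells of a type and less RNA per cell of that type therefore cannot be told apart.

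A strong synaptic input makes a neuron transcribe immediate early genes, whose products are mostly transcription factors of the Fos/Jun (AP-1), Egr and Nr4a families, and these in turn act on effector genes at the synapse. Calcium and MAP kinase signals start this wave through factors already bound to DNA, such as CREB at cyclic AMP response elements, and the wave induces its own inhibitors. Training in water also releases corticosterone, whose receptors act in neurons and glia on a well-known set of genes, several of which (Per1, Sgk1, Tsc22d3, Fkbp5) respond in many tissues.

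The promoters of some genes on which the results turn are printed first. They are the 250 bases before a RefSeq transcription start (build GRCm38.p6), on the strand of the gene, 5′ to 3′. Capitals mark 3 motifs searched on both strands, which did not overlap each other here: TGACG, the half-site of the cyclic AMP response element (CRE); AGAACA, a half-site of the glucocorticoid response element; and CACGTG, the E-box bound by clock factors. Fos, Fosb and Egr4 are immediate early genes whose windows hold a CRE half-site, and Egr2 is the gene of largest rise in the comparison, whose window holds none. Fos lies at chr12:85473640-85473889 on the + strand, with half-sites that begin 129 and 66 bases before the start. The window of Fosb is at chr7:19310046-19310295 on the - strand and has a half-site that begins 60 bases before the start. Egr4 has its window at chr6:85513590-85513839 on the - strand and half-sites that begin 177 and 109 bases before the start. Egr2 has its window at chr10:67535249-67535498 on the + strand, with an E-box that begins 27 bases before the start.
Fos: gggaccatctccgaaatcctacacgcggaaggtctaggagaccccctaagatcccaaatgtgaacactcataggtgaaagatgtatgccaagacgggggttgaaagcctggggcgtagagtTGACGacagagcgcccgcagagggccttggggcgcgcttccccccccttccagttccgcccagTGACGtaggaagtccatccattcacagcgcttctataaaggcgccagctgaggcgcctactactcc
Fosb: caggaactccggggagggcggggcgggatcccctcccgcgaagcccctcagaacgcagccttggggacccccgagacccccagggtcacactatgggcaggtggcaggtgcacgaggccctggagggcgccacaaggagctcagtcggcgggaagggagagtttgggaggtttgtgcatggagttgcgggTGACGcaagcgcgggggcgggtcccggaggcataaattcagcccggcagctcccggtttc
Egr4: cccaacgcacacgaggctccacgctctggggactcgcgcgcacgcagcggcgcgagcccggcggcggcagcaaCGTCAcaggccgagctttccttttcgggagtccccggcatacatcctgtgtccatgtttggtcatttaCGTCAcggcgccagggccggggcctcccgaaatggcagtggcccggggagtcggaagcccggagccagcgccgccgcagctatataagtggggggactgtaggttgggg
Egr2: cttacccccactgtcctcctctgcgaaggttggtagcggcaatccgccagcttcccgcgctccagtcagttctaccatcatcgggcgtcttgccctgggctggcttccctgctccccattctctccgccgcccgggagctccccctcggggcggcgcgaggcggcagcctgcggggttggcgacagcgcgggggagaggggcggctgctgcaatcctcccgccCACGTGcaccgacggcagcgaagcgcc

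The second set shows the clock and glucocorticoid genes Per1, Sgk1 and Tsc22d3, whose windows hold an E-box or a glucocorticoid half-site. Per1 was read at chr11:69098699-69098948 on the + strand, at a start that lies 3732 bases from the outer end of the gene in GENCODE, and has a CRE half-site that begins 246 and an E-box that begins 166 bases before this start. Sgk1 was read at chr10:21881934-21882183 on the + strand and has a glucocorticoid half-site that begins 195 bases before the start. Tsc22d3 was read at chrX:140600523-140600772 on the - strand, 137 bases from the outer end of the gene, and its half-site begins 185 bases before the start.
Per1: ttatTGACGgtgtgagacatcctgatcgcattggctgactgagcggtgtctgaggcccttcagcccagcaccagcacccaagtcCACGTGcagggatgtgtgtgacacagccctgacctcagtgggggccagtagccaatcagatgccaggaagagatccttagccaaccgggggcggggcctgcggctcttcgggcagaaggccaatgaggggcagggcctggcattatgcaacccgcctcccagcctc
Sgk1: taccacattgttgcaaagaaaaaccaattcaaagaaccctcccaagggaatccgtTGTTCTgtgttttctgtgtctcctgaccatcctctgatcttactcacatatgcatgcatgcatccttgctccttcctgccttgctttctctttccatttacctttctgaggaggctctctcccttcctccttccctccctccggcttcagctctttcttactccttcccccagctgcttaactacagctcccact
Tsc22d3: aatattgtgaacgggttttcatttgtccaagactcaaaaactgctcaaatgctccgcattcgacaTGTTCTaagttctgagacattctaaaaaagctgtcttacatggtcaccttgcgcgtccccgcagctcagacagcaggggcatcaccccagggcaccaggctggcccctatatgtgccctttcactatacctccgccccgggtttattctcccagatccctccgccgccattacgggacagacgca

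A window was found for 12573 of the 17830 tested genes. The CRE half-site was in 25.4% of them, in 34% of the 421 genes called higher in learning caffeine mice that had a window, in 24% of the 288 called lower, and in 12 of the 20 immediate early and effector genes called higher (60%). The glucocorticoid half-site was in 10.8% of all windows and in 3 of 11 glucocorticoid response genes called higher, namely Sgk1, Tsc22d3 and Sult1a1. Its share was 7.36% among all genes called higher and 12.5% among those called lower. E-boxes were in 7.95% of all windows and in 3 of 5 clock genes called higher, namely Per1, Tef and Ciart, with 10.7% among all genes called higher and 5.56% among those called lower. The CArG box, bound by serum response factor, was in 1.14% of all windows and in none of the 20 immediate early and effector genes. These counts describe letters in a short window and say nothing about which factor was bound.

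The deposited table holds read counts for 35328 genes. Learning caffeine libraries held 36805213 to 49949281 counts on genes and home cage caffeine libraries 23078094 to 41841785 (exact two-sided permutation test, p = 0.143, n = 4 and 4). Levels are given as CPM, which relates counts to a library total rescaled by a factor for composition (TMM), so that mice can be compared. The share of counts from mitochondrial genes was 3.23% to 3.59% in learning and 3.46% to 4.49% in home cage caffeine mice (exact permutation test, p = 0.143, n = 4 and 4). Home cage caffeine mouse 17 had the highest share and the lowest value on the first principal component of the 16 libraries (-29.09, against -16.58 to -1.72 in the other 3), which held 18.45% of the variance. Learning caffeine mice lay at 7.46 to 24.41 on this component, with no overlap (p = 0.0286, the smallest value that an exact two-sided permutation test of 4 against 4 can give). The part of the mitochondrial share in the results was not tested. Of 11 dentate granule cell, 8 CA1, 8 CA3 and 11 GABA interneuron markers none passed the test, with median log2 fold changes of 0.02, -0.16, 0.09 and -0.04, and the summed level of dentate markers was 651 to 1080 CPM in home cage and 751 to 1090 CPM in learning caffeine mice. Of 11 thalamus markers, 3 were called lower, as described below. Prox1, which marks dentate granule cells, Wfs1, which marks CA1, and Gad1 of interneurons were all present in every library (at least 85.9, 101 and 323 CPM).

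Training under caffeine changed many genes by a little and few genes by a lot. At an adjusted p under 0.1 (edgeR), 942 of 17830 tested genes were called (5.28%): 563 were higher in learning caffeine mice (3.16%) and 379 were lower (2.13%). The median change was 1.24-fold (0.31 on the log2 scale) among the higher genes and 1.32-fold (-0.40) among the lower ones. Only 26 higher and 35 lower genes passed a 2-fold change, and 80.5% of the higher and 64.6% of the lower genes changed by less than 0.5 on the log2 scale. Over all tested genes the median log2 fold change was -0.012 and the median standard error 0.10. The values of the 4 learning mice lay wholly above those of the 4 home cage mice in 1005 genes (5.64%) and wholly below in 935 (5.24%), and in 497 of the 563 higher and 318 of the 379 lower called genes. Higher genes had longer transcripts (median 4538 bases) than all tested genes (3142) and lower genes had shorter ones (2491). The median GC content was 49% and 51.5%, against 49.5% over all. With a correction for length and GC content, 592 genes were called higher and 329 lower, of which 457 and 258 were among those above. With every library thinned to the total of the smallest, 493 were called higher and 293 lower, 455 and 250 of them among those above. Without home cage caffeine mouse 17 the counts were 281 and 125, without learning caffeine mouse 30 they were 249 and 133, and without both 127 and 50, the last setting chosen after the data had been seen. Without learning caffeine mouse 40, 333 genes were higher and 179 lower, and the lower genes were 219 without mouse 2 and 167 without mouse 22. Many calls were thus lost when a single mouse was left out, which also makes its group smaller. In the lists of such losses below, home cage mice 6, 8, 11 and 20 and learning mice 24, 33, 36 and 38 drank water. They are not part of the caffeine contrast and bear on it only through the fit shared by all 16 libraries. Of 206 called genes that are named here or belong to a gene list, 86 were called whichever of the 16 libraries was left out and 121 with every other tool, filter and correction tried. The correction for length and GC content ended 46 of these calls, a fit on the 8 caffeine libraries alone 58 and thinning 27. Exons of 174 higher and 105 lower genes overlap those of another gene, and because the strand setting of the counting is not given in the sources used here, such genes may share reads. Among the genes named below this holds for Junb (Prdx2), Tiparp (4931440P22Rik), Bhlhe40 (0610040F04Rik), Gpr3 (Cd164l2), Coq10b (E330011M16Rik), Sik2 (Ppp2r1b), Sult1a1 (Sgf29), Tef (Gm17597), Irs2 (9530052E02Rik), Kdm7a (4930599N23Rik), Kmt2a (AC061963.1), Med20 (Gm20517, Kpna2-ps), Adal (Lcmt2), Trim9 (Gm32151, Gm48747), Tub (Gm26599, Ric3), Gm48678 (Itsn2), Cx3cr1 (Gm33858), Cd180 (Mast4), Psmb8 (Gm20496), Fzd5 (Gm38058), Zic1 (Zic4), Zic4 (Gm37477, Zic1), Col22a1 (Gm16308), Gm42418 (CT010467.1), Gm10687 (Mcam), Fbxo32 (Gm15943), Penk (A830012C17Rik), Ndufa11 (Vmac), Eif4e3 (Gm20696) and Rack1 (Trim41).

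**Figure D1:**
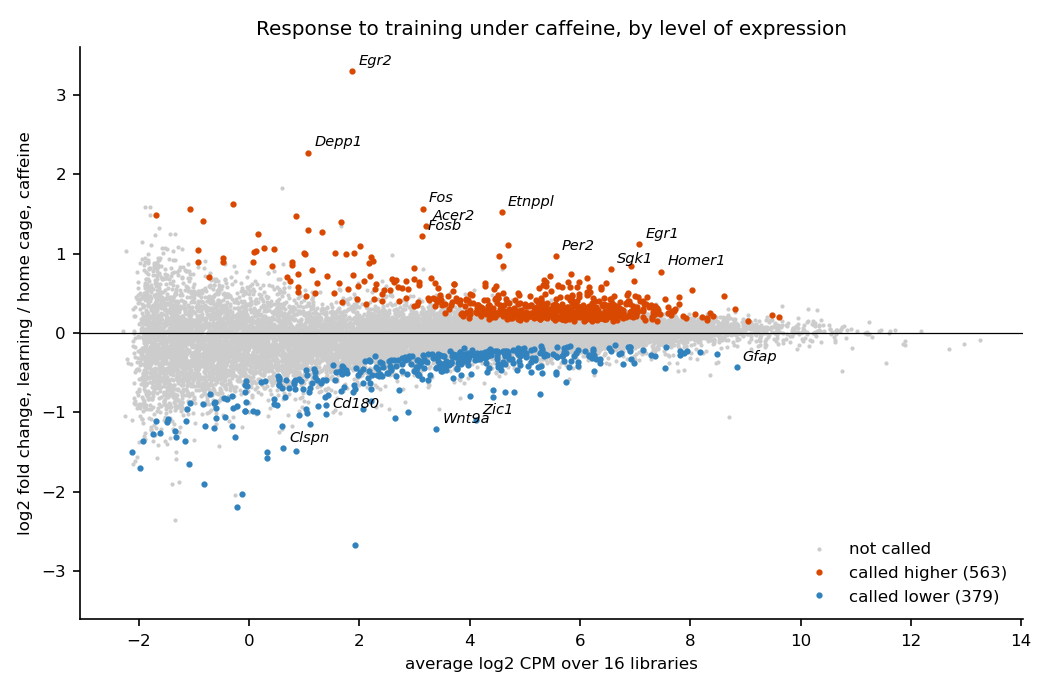
Each point is 1 of the 17830 tested genes: the average log2 CPM over 16 libraries is on the x axis and the log2 fold change of learning over home cage mice under caffeine on the y axis, with 563 genes called higher in orange and 379 called lower in blue. Egr2 (3.30) and Depp1 (2.27) lie above the rest, and most called genes of high level lie close to 0.

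Egr2, Depp1 and Fos, taken as marker genes of the comparison from earlier results of these data, all rose. Egr2 (ENSMUSG00000037868, chr10:67535475-67542188, mm10), a zinc finger transcription factor, was at 0.776, 0.819, 0.624 and 0.642 CPM in home cage caffeine mice 2, 9, 14 and 17 and at 6.88, 4.95, 9.29 and 6.93 CPM in learning caffeine mice 22, 27, 30 and 40, the order used throughout. The groups are far apart, at a log2 fold change of 3.3 ± 0.26, adjusted p = 4.95e-06. The value after ± is the standard error of the edgeR fit, adjusted p-values are from edgeR's quasi-likelihood test after Benjamini-Hochberg correction over all tested genes, and values in brackets below have the same form. Depp1 (ENSMUSG00000048489, chr6:116650609-116652794), a FOXO target that has been linked to autophagy, was at 0.994, 0.732, 0.511 and 0.642 CPM in home cage and 4.4, 4.88, 1.43 and 3.41 CPM in learning mice. Mouse 30 was the lowest of the learning mice and still above all home cage mice (2.27 ± 0.36, adjusted p = 0.00377). Fos (ENSMUSG00000021250, chr12:85473890-85477273), the AP-1 subunit most used as a mark of neuronal activity, was at 6.43, 3.71, 4.68 and 4.16 CPM in home cage and 12.9, 12.2, 13.7 and 18.2 CPM in learning mice, again with no overlap (1.57 ± 0.19, adjusted p = 5.07e-04). The 3 calls held whichever library was left out.

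Among the AP-1 factors, 5 of 11 tested rose under caffeine (45.5%, against 3.16% of all genes) and none fell. The median log2 fold change over the list was 0.51. Members of this and the other lists were chosen with earlier results of these data known, which can raise such shares. Fosb, which gives rise to the long-lived ΔFosB, was at 5.53, 6.59, 5.22 and 5.61 CPM in home cage and 14, 12.9, 14 and 12.4 CPM in learning mice. Its values were tight within each group and changed by 1.22 ± 0.11, adjusted p = 1.37e-05. Junb, which partners with Fos, was at 40.1, 29.7, 31.1 and 35.5 CPM in home cage and 49.9, 57.1, 59.1 and 59 CPM in learning mice (0.72 ± 0.12, adjusted p = 0.00393). Fosl2 had 26.4, 30.4, 38.5 and 37.8 CPM in home cage and 45.7, 52.9, 59.8 and 53.8 CPM in learning mice, also without overlap (0.67 ± 0.13, adjusted p = 0.0121). Maff, a small Maf factor, rose from a low level and its groups overlapped (1.03 ± 0.29, adjusted p = 0.0646). Its call was lost without mouse 2, 17, 22 or 30 (0.81 to 1.28), the range being that of the log2 fold change over the fits that left out each of the 16 libraries in turn. Jun (0.22, adjusted p = 0.422) and Atf3 (0.51, adjusted p = 0.218) did not pass the test.

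The Egr family responded nearly as a whole. Egr1 was at 104, 95.9, 87.3 and 83.8 CPM in home cage and 201, 187, 213 and 206 CPM in learning mice, and every learning mouse had more than any home cage mouse (1.12 ± 0.11, adjusted p = 2.42e-05). Egr4 was at 17.5, 19.6, 14.5 and 17.4 CPM in home cage and 38.8, 36.2, 40.3 and 33.4 CPM in learning mice, a change of about the same size (1.11 ± 0.12, adjusted p = 1.22e-04). Egr3 was at 104, 121, 116 and 90.6 CPM in home cage and 159, 140.0, 152 and 145 CPM in learning mice, a smaller step that also showed no overlap (0.47 ± 0.08, adjusted p = 0.00788). The corepressors that bind Egr factors did not pass the test, Nab1 at -0.05 (adjusted p = 0.749) and Nab2 at 0.16 (adjusted p = 0.336). All Nr4a receptors, nuclear receptors that need no ligand, passed the test. Nr4a2 was at 38.5, 46, 41.4 and 41.1 CPM in home cage and 61.2, 55.5, 73.9 and 62.3 CPM in learning mice (0.60 ± 0.13, adjusted p = 0.018). Nr4a1 (0.58 ± 0.16, adjusted p = 0.0646) and Nr4a3 (0.45 ± 0.12, adjusted p = 0.0614) rose without overlap between groups, but the call of Nr4a1 was lost without mouse 9, 14, 30 or 40 (0.48 to 0.69), and that of Nr4a3 was lost without mouse 17, 22, 30 or 40 (0.34 to 0.57).

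Other immediate early regulators were more selective: 5 of 32 rose (15.6%, against 3.16% of all genes) and none fell, and the list median was 0.16. Tiparp, an ADP-ribosyltransferase that represses the aryl hydrocarbon receptor, was at 21.6, 18.3, 18.2 and 16.1 CPM in home cage and 23.9, 25.2, 24.2 and 26.8 CPM in learning mice (0.43 ± 0.08, adjusted p = 0.0124). Nfkbiz, an atypical inhibitor of NF-kappaB, was at 10.6, 10.9, 11.5 and 12.1 CPM in home cage and 13.9, 13.7, 15.7 and 14.5 CPM in learning mice (0.35 ± 0.07, adjusted p = 0.0183). The clock repressor Bhlhe40 (0.51 ± 0.13, adjusted p = 0.0527) and the DNA-binding proteins Arid5a (0.37 ± 0.10, adjusted p = 0.0578) and Arid5b (0.30 ± 0.08, adjusted p = 0.0616) rose without overlap. The call of Bhlhe40 was lost without mouse 2 or 30 (0.45 to 0.60), that of Arid5a lost without mouse 2, 14, 17 or 30 (0.33 to 0.42) and that of Arid5b lost without mouse 2, 17, 22 or 27 (0.26 to 0.35). Npas4, which is restricted to neurons and follows calcium entry, was at 8.51, 7.32, 11.3 and 10.2 CPM in home cage and 10.9, 11, 9.19 and 11.9 CPM in learning caffeine mice and did not pass the test (0.20, adjusted p = 0.54).

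**Figure D2:**
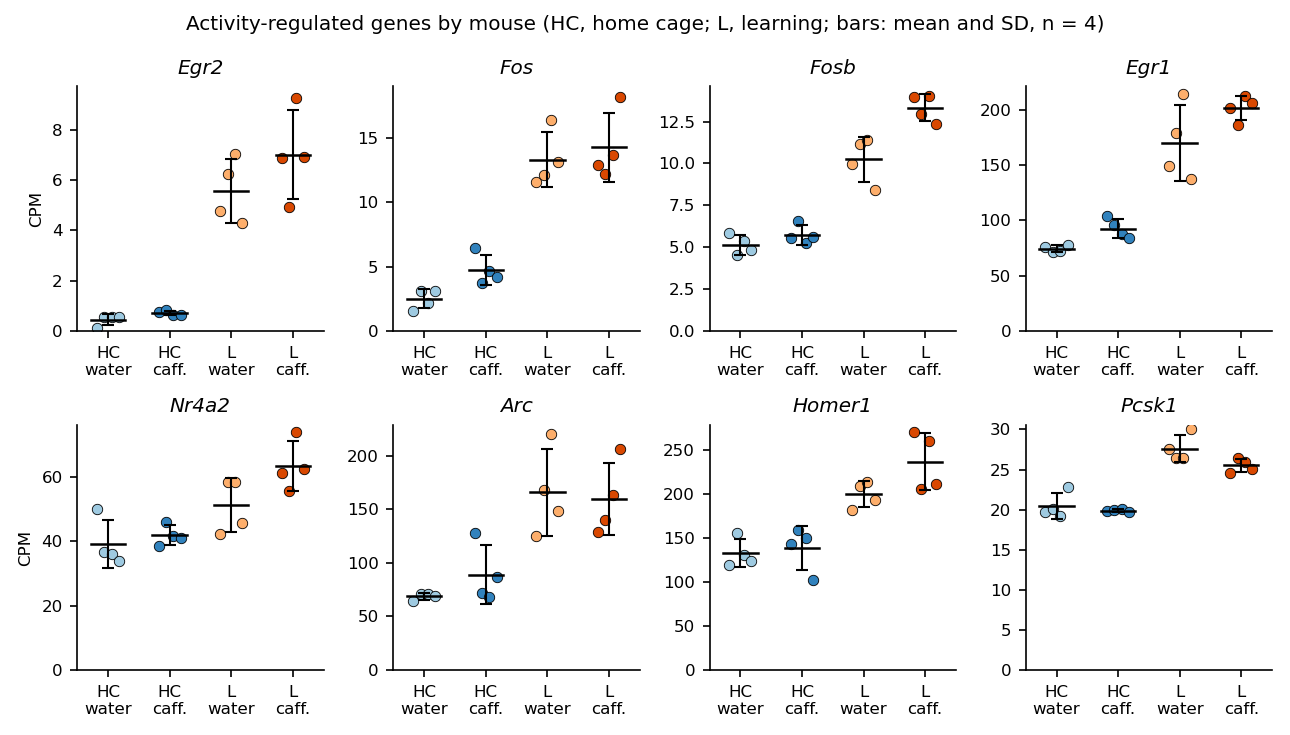
CPM of 8 activity-regulated genes in each of the 16 mice, with the mean and SD of each group of 4. In all 8 genes each learning caffeine mouse lies above each home cage caffeine mouse; Egr2 goes from 0.624 to 0.819 CPM in the home cage to 4.95 to 9.29 CPM.

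Effector genes of activity followed in part: 8 of 36 rose (22.2%, against 3.16% of all genes) and none fell, with a list median of 0.14. Arc, a capsid-like protein that removes AMPA receptors from synapses, was at 128, 72.2, 68.3 and 87.1 CPM in home cage and 129, 140.3, 163 and 206 CPM in learning mice. Home cage mouse 2 came close to learning mouse 22, yet the groups did not overlap (0.84 ± 0.19, adjusted p = 0.026). Homer1, whose short activity-induced form loosens scaffolds at the postsynaptic density, was at 143, 159, 149.9 and 102 CPM in home cage and 270.2, 206, 259.9 and 212 CPM in learning mice (0.77 ± 0.12, adjusted p = 0.00369). The counts do not separate this form from the long ones. Pcsk1, a protease that matures neuropeptides, was at 19.8, 20.0, 20.1 and 19.7 CPM in home cage and 24.6, 26.4, 26 and 25 CPM in learning mice, which were the tightest groups among the effectors named (0.36 ± 0.06, adjusted p = 0.00572). Errfi1, an inhibitor of the EGF receptor, was at 47.7, 41.1, 33.7 and 33.7 CPM in home cage and 61.5, 53.9, 60.0 and 60.2 CPM in learning mice (0.59 ± 0.09, adjusted p = 0.00369). Dnajb5, a cochaperone, was at 167, 163, 154 and 171 CPM in home cage and 226, 197, 218 and 239.5 CPM in learning mice (0.43 ± 0.07, adjusted p = 0.00377). Gpr3, an orphan receptor that raises cyclic AMP (0.61 ± 0.12, adjusted p = 0.0154), Coq10b (0.42 ± 0.09, adjusted p = 0.0231) and the cell cycle inhibitor Cdkn1a (0.64 ± 0.16, adjusted p = 0.0403) completed the list. Over the 5 immediate early and effector lists together, 25 of 88 tested genes were higher under caffeine (28.4%, against 3.16% of all genes) and 22 were higher under water. The 25 became 21 without home cage mouse 17, 20 without learning mouse 30 and 14 without both.

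Inhibitors that MAP kinase signaling induces against itself did not all go one way. Dusp6, a phosphatase specific for ERK, was at 56.6, 51.3, 46.2 and 44.2 CPM in home cage and 60.9, 63.5, 76.9 and 72.6 CPM in learning mice (0.47 ± 0.10, adjusted p = 0.0258). Spry4 (0.49 ± 0.10, adjusted p = 0.0126) and Spred1 (0.37 ± 0.07, adjusted p = 0.0124), which act on the pathway further up, also rose, as did Dusp5 (0.84 ± 0.21, adjusted p = 0.04), an ERK phosphatase of the nucleus. Dusp5 was high in home cage mouse 2, at 28.7 CPM against 13.2 to 17.7 in the others, and its call was lost without mouse 17 (0.71 to 1.15). Dusp16, a phosphatase that prefers JNK and p38, went the other way, from 15.5, 17.7, 16.6 and 14.7 CPM to 12.3, 11.2, 11.9 and 12.3 CPM (-0.43 ± 0.09, adjusted p = 0.0154). Dusp2 fell as well (-1.05 ± 0.28, adjusted p = 0.0589), at levels around 1 CPM and below, and its call was lost without mouse 14, 17, 22, 30 or 40 (-1.18 to -0.84). Of 16 list members tested, 4 rose and 2 fell (25% and 12.5%, against 3.16% and 2.13% of all genes). In the CREB list 3 of 20 rose (15%, against 3.16% of all genes) and none fell. Sik1, the salt-inducible kinase that holds CREB coactivators in the cytoplasm, was at 6.67, 6.12, 4.83 and 6.67 CPM in home cage and 7.94, 9.17, 10.4 and 11.3 CPM in learning mice (0.67 ± 0.13, adjusted p = 0.0108). Sik2 (0.50 ± 0.11, adjusted p = 0.0217) and the acetyltransferase Ep300 (0.29 ± 0.08, adjusted p = 0.0649) rose too, Ep300 with a call lost without mouse 2, 17, 30 or 40 (0.22 to 0.33). None of 10 neurotrophins and their receptors passed the test (median 0.08).

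Of the lists outside the immediate early families, genes known to answer glucocorticoids had the largest share of rises. Here 12 of 23 rose (52.2%, against 3.16% of all genes), none fell, and the median log2 fold change was 0.49. Because lists and members were chosen with earlier results of these data known, this rank describes the lists as chosen and is no test. Sgk1, a kinase that regulates ion channels, was at 70.0, 72.3, 66.5 and 57.1 CPM in home cage and 140.3, 123, 98.2 and 102 CPM in learning mice (0.80 ± 0.16, adjusted p = 0.0147). Tsc22d3, the leucine zipper protein GILZ, was at 43.5, 41.9, 39.9 and 46.8 CPM in home cage and 86.3, 82.9, 59.7 and 59.5 CPM in learning mice (0.75 ± 0.14, adjusted p = 0.0121). In both genes learning mice 22 and 27 were above mice 30 and 40, which in turn were above every home cage mouse. Fkbp5, a cochaperone that lowers the affinity of the receptor, was at 58.7, 67.9, 69.3 and 59.4 CPM in home cage and 81, 82.8, 79 and 90.2 CPM in learning mice (0.38 ± 0.08, adjusted p = 0.0174). Zbtb16 was at 33.4, 34.6, 37.1 and 24.9 CPM in home cage and 49.3, 48.4, 46.8 and 51.6 CPM in learning mice (0.59 ± 0.12, adjusted p = 0.0186). For Hif3a, a hypoxia-inducible factor subunit that mainly restrains the others, home cage mouse 17 stood apart at 4.52 CPM against 2.71 to 2.84 in the other 3, while learning mice had 7.28, 6.49, 5.46 and 5.81 CPM (0.95 ± 0.19, adjusted p = 0.0144). Sult1a1, a sulfotransferase (0.69 ± 0.17, adjusted p = 0.041), was called too, as were Per1, Errfi1 and Cdkn1a, which the clock and effector lists also hold. Galnt15 (1.01 ± 0.26, adjusted p = 0.0489), Map3k6 (0.71 ± 0.22, adjusted p = 0.0933) and Ddit4, an inhibitor of mTOR signaling (0.36 ± 0.11, adjusted p = 0.0991), completed the 12. The call of Galnt15 was lost without mouse 2, 17, 27 or 30 (0.77 to 1.16). That of Map3k6 was lost without mouse 2, 9, 14, 17, 20, 22, 27, 30, 33, 36, 38 or 40 (0.59 to 0.81), and that of Ddit4 was lost without mouse 2, 9, 14, 17, 22, 27, 30, 33 or 40 (0.32 to 0.42). Plin4, a lipid droplet protein, did not overlap between groups but did not pass the test (1.35 ± 0.44, adjusted p = 0.111). It was called in 3 of the 9 other tools and filters, edgeR on the 8 caffeine libraries among them, and in 5 of 16 fits with 1 library removed. The list held 9 calls without mouse 17, 9 without mouse 30 and 8 without both. Under water the same list had a median of 0.22 and 3 calls.

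Of 19 clock genes tested, 7 rose and 1 fell, with a median of 0.22. These shares are 36.8% and 5.26%, against 3.16% and 2.13% of all genes. Per2, a repressor of the clock, was at 32.3, 32.5, 34.5 and 29 CPM in home cage and 75.6, 55.8, 62.7 and 57.7 CPM in learning mice (0.97 ± 0.10, adjusted p = 9.56e-05). Per1 was at 58.7, 52.3, 55.4 and 63.5 CPM in home cage and 79.9, 80.1, 91.9 and 91.2 CPM in learning mice (0.58 ± 0.09, adjusted p = 0.00393). Per3 was at 35.1, 43.7, 54.7 and 46.7 CPM in home cage and 79.5, 66.2, 61.1 and 61.9 CPM in learning mice (0.58 ± 0.13, adjusted p = 0.026). The basic leucine zipper factors of the output arm, Tef (0.30 ± 0.06, adjusted p = 0.0194) and Hlf (0.40 ± 0.11, adjusted p = 0.0641), and the repressor Ciart (0.57 ± 0.18, adjusted p = 0.097) rose as well, Hlf with a call lost without mouse 2, 9, 27, 30 or 40 (0.32 to 0.47), and Ciart with a call lost without mouse 2, 9, 11, 17, 20, 27, 30, 33, 38 or 40 (0.44 to 0.70). Bhlhe40, described above, was the seventh. Arntl, the activator that drives the Per genes, fell from 52, 40.02, 43 and 48.4 CPM to 32.7, 33.2, 34 and 36.3 CPM (-0.43 ± 0.09, adjusted p = 0.0174). Mice were killed within a single short period, learning mice after a delay from their last session, and the hour of each mouse was not used here, so the part of time of day in these values was not tested. The number of higher clock genes was 4 without mouse 2 or 30 and 3 without both 17 and 30.

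**Figure D3:**
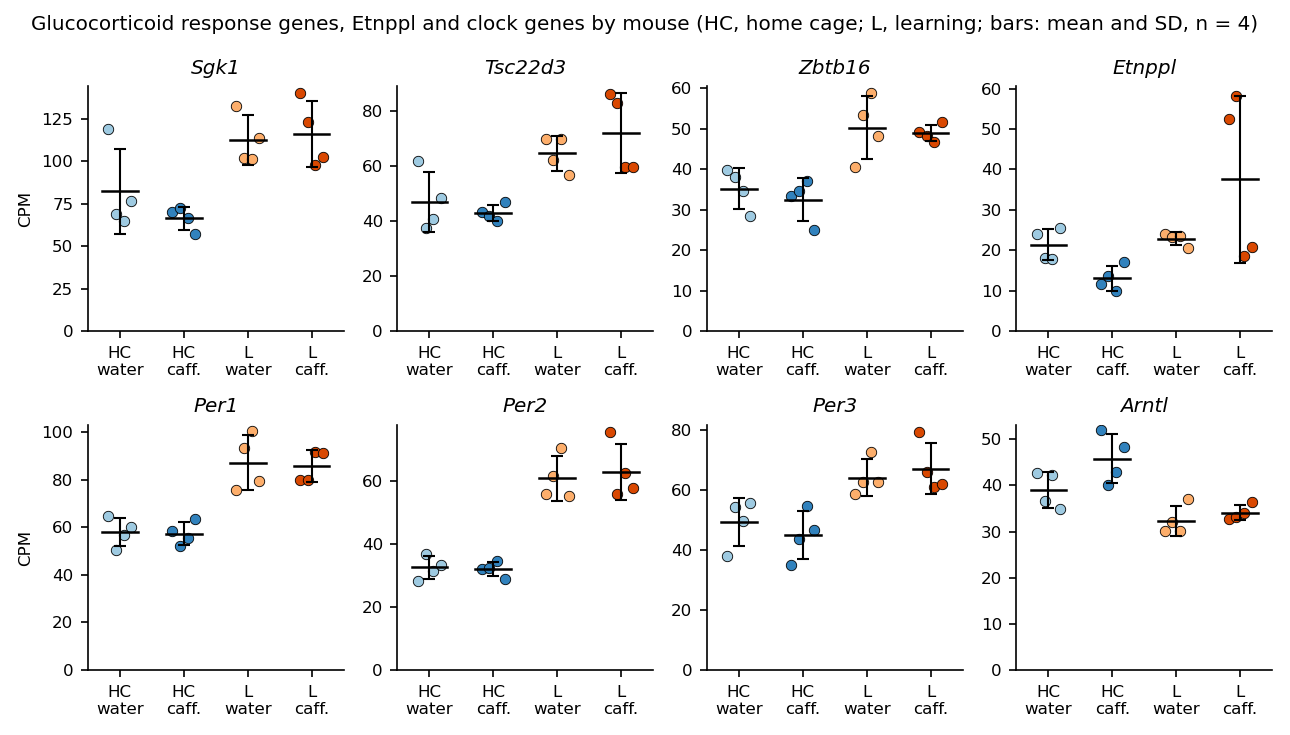
CPM of the glucocorticoid response genes Sgk1, Tsc22d3 and Zbtb16, of Etnppl and of the clock genes Per1, Per2, Per3 and Arntl in each of the 16 mice, with the mean and SD of each group of 4. Etnppl splits the learning caffeine mice into mice 22 and 27 at 52.6 and 58.1 CPM and mice 30 and 40 at 18.7 and 20.7 CPM, and Arntl is lower in learning than in home cage caffeine mice.

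Protein folding in the endoplasmic reticulum gave 4 called genes of 30 (13.3%, against 3.16% of all genes), all higher, with a list median of 0.11. Herpud1, which helps clear misfolded proteins, was at 41.6, 46.8, 44.9 and 43.1 CPM in home cage and 57.2, 54.6, 55.6 and 55.1 CPM in learning mice (0.34 ± 0.05, adjusted p = 0.00341). Xbp1, the transcription factor spliced in the unfolded protein response, was at 61.3, 84.4, 72.9 and 66.2 CPM in home cage and 93.4, 86.1, 101 and 95.7 CPM in learning mice (0.40 ± 0.09, adjusted p = 0.0304). Home cage mouse 9 lay just under the lowest learning mouse. Hspa5, the main chaperone of this compartment, was at 202, 267, 257 and 183 CPM in home cage and 340.3, 282, 362 and 339.8 CPM in learning mice (0.55 ± 0.14, adjusted p = 0.0477). Its call was lost without mouse 2, 17, 30 or 40 (0.46 to 0.63). Hyou1, a large chaperone of the same compartment, rose by a smaller step (0.30 ± 0.07, adjusted p = 0.0253). Atf4, the factor of the translational arm, did not pass the test (0.11, adjusted p = 0.318), but was called with the length and GC correction. The count rested on the setting: 9 members were called with the length and GC correction, 7 to 9 without any one of mice 8, 9, 14, 24 and 27, and 1 without both 17 and 30. Among 25 cold-inducible and heat shock genes, Cirbp, the cold-inducible RNA-binding protein, fell from 74.7, 82.2, 80.5 and 110.0 CPM to 54.9, 66, 60.9 and 67.8 CPM (-0.48 ± 0.12, adjusted p = 0.0402), with home cage mouse 17 the highest at 110.0 CPM and a call lost without mouse 17, 22 or 30 (-0.53 to -0.34). The cochaperones Dnajb1 (0.33 ± 0.08, adjusted p = 0.0409), Chordc1 (0.31 ± 0.08, adjusted p = 0.0545) and Dnajb4 (0.20 ± 0.06, adjusted p = 0.0749) rose. Their calls were fragile: that of Dnajb1 was lost without mouse 17, 30 or 40 (0.27 to 0.42), that of Chordc1 lost without mouse 9, 17, 22, 30 or 40 (0.25 to 0.38), and that of Dnajb4 lost without mouse 17, 30 or 40 (0.15 to 0.24). Rbm3, the other cold-inducible RNA-binding protein, did not pass the test (0.20, adjusted p = 0.192). In this list 3 of 25 rose and 1 fell (12% and 4%, against 3.16% and 2.13% of all genes).

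Genes of blood supply and fuel use were called here and there. Vegfa, the vascular growth factor, was at 65.7, 75.6, 79.3 and 80.3 CPM in home cage and 112, 86.9, 105 and 94.7 CPM in learning mice (0.40 ± 0.09, adjusted p = 0.0295). Nrp1, one of its receptors, was at 62.2, 63.8, 68.6 and 39.2 CPM in home cage and 85.6, 80.1, 87.7 and 80.8 CPM in learning mice (0.52 ± 0.12, adjusted p = 0.0298), and home cage mouse 17 was by far the lowest. Adm, a vasodilator peptide, rose from a low level (1.07 ± 0.26, adjusted p = 0.0366). These were the 3 called of 20 genes in that list (15%, against 3.16% of all genes, median 0.05). Irs2, the adaptor through which insulin and IGF receptors signal, was at 70.0, 78.5, 67.3 and 53 CPM in home cage and 104, 97.1, 106 and 95.1 CPM in learning mice (0.58 ± 0.08, adjusted p = 0.00162). Klf15, a factor of fasting and steroid responses, was at 17.5, 17.1, 15.5 and 17.8 CPM in home cage and 26.3, 28.8, 24.7 and 22.8 CPM in learning mice (0.60 ± 0.12, adjusted p = 0.0139). Depp1 and the transcription factor Foxo3 (0.28 ± 0.08, adjusted p = 0.0752) completed the 4 of 27 called in the insulin list, the call of Foxo3 being lost without mouse 2, 17, 30 or 40 (0.22 to 0.32). The 4 are 14.8% of that list, against 3.16% of all genes. Slc2a3, the glucose transporter of neurons, was at 123, 127, 133 and 116 CPM in home cage and 162, 157, 159 and 167 CPM in learning mice (0.37 ± 0.05, adjusted p = 0.00225). Besides it, only Pfkfb3, a switch of glycolytic rate, was called among 43 genes of glycolysis, lactate and the citrate cycle (0.37 ± 0.12, adjusted p = 0.0954), and that call was lost without mouse 14, 17, 20, 22, 30, 33, 36 or 40 (0.26 to 0.46). The 2 calls are 4.65% of the 43, near the 3.16% of all genes. Acss1, a mitochondrial acetyl-CoA synthetase, was at 37, 35.7, 37.9 and 40.04 CPM in home cage and 48.6, 47.2, 42 and 38.3 CPM in learning mice and did not pass the test (0.23 ± 0.08, adjusted p = 0.159). DESeq2 called it on the 16 and on the 8 libraries, and so did edgeR without mouse 40.

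Genes that make and process RNA gave small rises at shares above the background, in few members of each list. The share called higher was 11.9% for histone methylation, 11.5% for Mediator and elongation and 11.3% for splicing and RNA-binding genes. For histone acetylation and acetyl-CoA it was 8.11%, and for all tested genes 3.16%. In histone methylation 5 of 42 rose and none fell. Kdm7a, a demethylase of H3K9 and H3K27, was at 99.7, 113, 114 and 70.1 CPM in home cage and 161, 130.1, 161 and 173 CPM in learning mice (0.66 ± 0.14, adjusted p = 0.0228), and Kdm3a, an H3K9 demethylase, was at 41, 44.5, 41.2 and 44.7 CPM in home cage and 52.3, 52.6, 50.7 and 52.5 CPM in learning mice (0.28 ± 0.05, adjusted p = 0.00572). Phf8 (0.29 ± 0.07, adjusted p = 0.0345), Kmt2a (0.33 ± 0.08, adjusted p = 0.041) and Kdm5c (0.26 ± 0.07, adjusted p = 0.0684) rose too. The call of Kmt2a was lost without mouse 40 (0.28 to 0.38), and that of Kdm5c lost without mouse 17, 30 or 40 (0.19 to 0.30). Among 37 genes of histone acetylation and acetyl-CoA, 3 rose, Ep300 and Hdac4 (0.26 ± 0.08, adjusted p = 0.0827) among them, and the median was 0.03. The call of Hdac4 was lost without mouse 14, 17, 22, 30, 33 or 40 (0.22 to 0.30). Mediator and elongation genes gave 6 rises and 1 fall in 52, with Med20 the clearest, from 22.5, 23.4, 22.8 and 22.6 CPM to 30.1, 26.9, 29.5 and 32.1 CPM (0.38 ± 0.06, adjusted p = 0.00447). Fold changes were above 0 in 30 of this list and below in 22 (median 0.04), and several of the other calls were lost without a single mouse. Splicing regulators and neuronal RNA-binding proteins gave 7 rises in 62 and no fall. Of the 62 fold changes 50 were above 0, where 8390 of all 17830 tested genes were. Tra2a, a splicing activator, was at 99, 102, 109 and 108 CPM in home cage and 149, 123, 139 and 139 CPM in learning mice (0.40 ± 0.08, adjusted p = 0.0164), and Cpeb1, which controls the poly(A) tails of dendritic mRNAs, was at 94.7, 100.2, 98.7 and 106 CPM in home cage and 118, 114, 118 and 127 CPM in learning mice (0.26 ± 0.06, adjusted p = 0.0238). Srsf7, a serine and arginine-rich splicing factor, was called as well (0.22 ± 0.05, adjusted p = 0.0335). The other calls in the splicing list were all lost with the length and GC correction. Each of them was also lost without at least 1 single mouse. Zinc finger proteins named Zfp were close to the background, with 10 higher and 8 lower of 355 (2.82% and 2.25%). Adenosine receptors and enzymes, the direct targets of caffeine and their pathway, gave 1 rise in 24 (4.17%, close to the 3.16% of all genes). It was Adal (0.32 ± 0.08, adjusted p = 0.0528), whose call was lost without mouse 17, 30 or 40 (0.26 to 0.37). Adora1, an adenosine receptor abundant in hippocampal neurons, did not pass the test (0.20, adjusted p = 0.134), but was called by DESeq2 on the 16 libraries and by edgeR without home cage mouse 2 or 6.

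**Figure D4:**
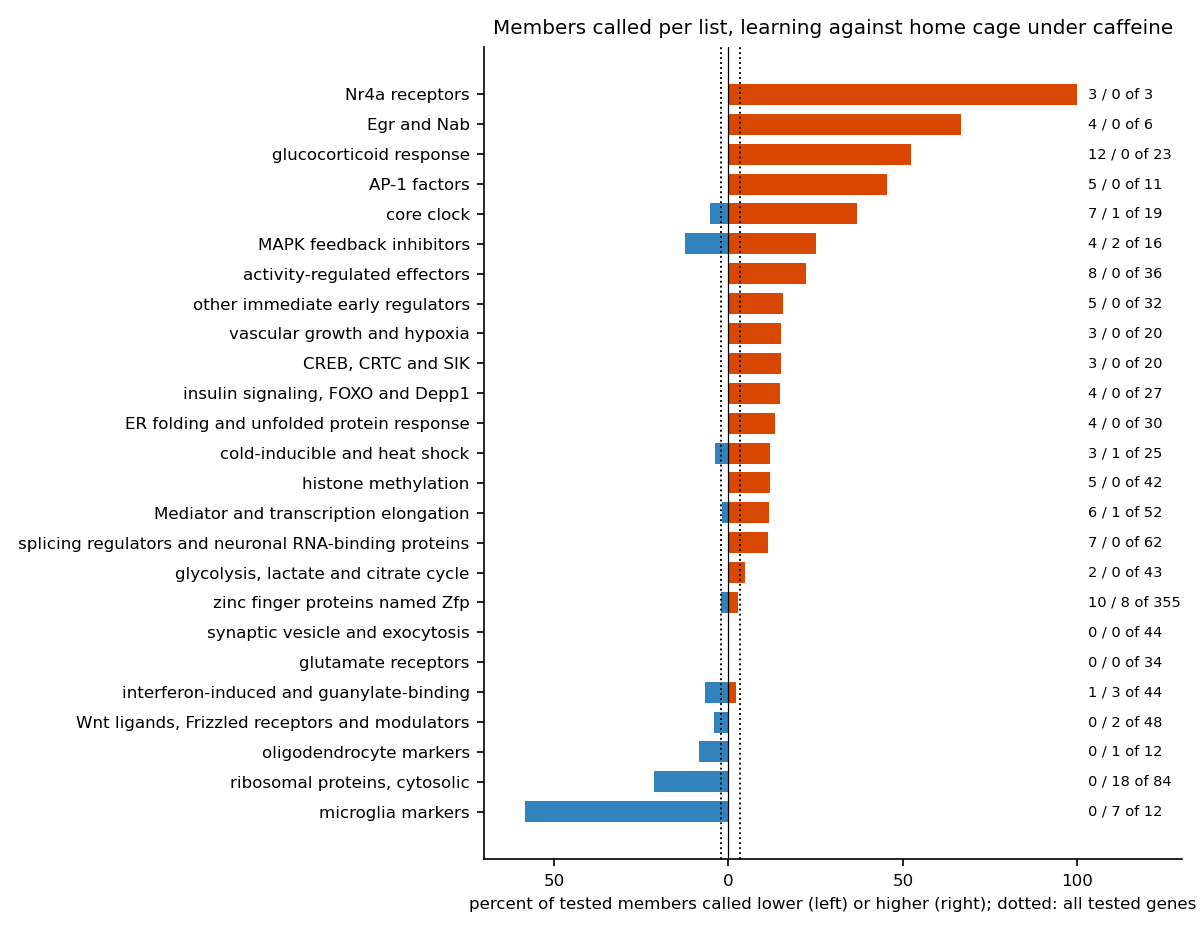
Share of the tested members of 25 lists called higher (right, orange) or lower (left, blue) in learning against home cage mice under caffeine, with the counts higher and lower of all tested at the right. Dotted lines are the shares over all genes, 3.16% higher and 2.13% lower, which the immediate early, glucocorticoid and clock lists pass on the right, among others, and microglia markers (58.3%) pass by the most on the left.

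Few synaptic and channel genes passed the test. No member passed the test among 34 glutamate receptors (median 0.04), 23 genes of GABA signaling (0.02), 33 calcium, sodium and HCN channels (0.05), 44 genes of synaptic vesicles and exocytosis (0.07) and 26 calcium store channels (0.03). Of 28 postsynaptic scaffolds only Homer1 was called (3.57%, against 3.16% of all genes called higher). Potassium channels gave 2 rises and 1 fall in 73 (2.74% and 1.37%), which is under the 3.16% and 2.13% of all genes. Among the 8 called higher genes of highest level were Trim9, a ubiquitin ligase of axon branching, at 279, 293, 324 and 292 CPM in home cage and 359.5, 353, 351 and 358 CPM in learning mice (0.26 ± 0.05, adjusted p = 0.0174), and Fam107a, an actin-binding protein induced by steroids, at 360.3, 322, 336 and 357 CPM in home cage and 562, 588, 379 and 374 CPM in learning mice (0.47 ± 0.12, adjusted p = 0.041). In Fam107a mice 22 and 27 again stood above mice 30 and 40, and the call was lost without mouse 22 (0.35 to 0.58). Stum (0.22 ± 0.07, adjusted p = 0.0954), Slc6a17 (0.16 ± 0.05, adjusted p = 0.097), Tub (0.21 ± 0.06, adjusted p = 0.064) and Pygb (0.19 ± 0.06, adjusted p = 0.086), the brain form of glycogen phosphorylase, rose by small steps. The call of Stum was lost without mouse 9, 17, 22, 27, 30, 36, 38 or 40 (0.19 to 0.26), that of Slc6a17 lost without mouse 9, 14, 17, 22, 27, 30, 33, 36 or 40 (0.14 to 0.20), that of Tub lost without mouse 2, 9, 17, 22, 30 or 40 (0.18 to 0.24), and that of Pygb lost without mouse 2, 17, 22, 27, 30 or 33 (0.15 to 0.24).

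Beyond the families above, the rule for large changes named several genes of astrocytes and lipid metabolism. Etnppl, an astrocyte enzyme that degrades phosphoethanolamine (chr3:130617448-130637521), was at 11.8, 13.7, 9.85 and 17 CPM in home cage and 52.6, 58.1, 18.7 and 20.7 CPM in learning mice (1.52 ± 0.29, adjusted p = 0.0124). Learning mice 22 and 27 were about 3 times as high as mice 30 and 40, which were themselves just above home cage mouse 17. Acer2, a ceramidase of the Golgi, was at 3.71, 7.63, 6.3 and 4.66 CPM in home cage and 15.4, 16.4, 13.9 and 10.0 CPM in learning mice (1.35 ± 0.21, adjusted p = 0.0036). Fmo2, a flavin monooxygenase, was at 1.16, 2.15, 1.93 and 1.23 CPM in home cage and 3.95, 6.79, 2.31 and 2.24 CPM in learning mice (1.27 ± 0.30, adjusted p = 0.0344), with a call lost without mouse 17 (0.83 to 1.46). Tm6sf2, which acts in lipid export (1.29 ± 0.28, adjusted p = 0.0253), Plekhf1, an endosomal protein (1.09 ± 0.27, adjusted p = 0.0405), and Fam83d, a spindle protein (0.996 ± 0.22, adjusted p = 0.026), rose by large steps, as did Gm26945 (1.4 ± 0.24, adjusted p = 0.00539) and Gm48678 (1.01 ± 0.26, adjusted p = 0.0503), which have no known role. The call of Plekhf1 was lost without mouse 17 (1.03 to 1.24), and that of Gm48678 lost without mouse 17 or 22 (0.78 to 1.16). Astrocyte markers as a whole did not move one way: Gjb6, a connexin, rose from 40.5, 41.4, 49.1 and 42.5 CPM to 59.7, 67.9, 57.6 and 52.1 CPM (0.45 ± 0.08, adjusted p = 0.00907), Gfap, the intermediate filament of reactive astrocytes, fell from 514, 568, 537 and 477 CPM to 359.9, 426, 398 and 371 CPM (-0.43 ± 0.08, adjusted p = 0.0101), and the other 11 did not pass the test.

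Markers of microglia had the largest share of falls among the 61 lists: 7 of 12 were lower in learning caffeine mice (58.3%, against 2.13% of all genes), none was higher, and the median was -0.25. As the lists were chosen with earlier results of these data known, this rank too is no test. Aif1, the marker Iba1, was at 6.59, 5.77, 6.7 and 7.23 CPM in home cage and 4.48, 4.93, 5 and 4.15 CPM in learning mice (-0.50 ± 0.11, adjusted p = 0.0258). Siglech, a lectin of microglia, was at 20.3, 19.1, 20.4 and 18.9 CPM in home cage and 15.6, 16.6, 16.2 and 16.1 CPM in learning mice (-0.29 ± 0.06, adjusted p = 0.0163). Cx3cr1, the fractalkine receptor, was at 67.5, 68.5, 68.5 and 62.1 CPM in home cage and 55.7, 59.2, 58.2 and 51.5 CPM in learning mice (-0.25 ± 0.06, adjusted p = 0.043). The complement genes C1qa (-0.29 ± 0.08, adjusted p = 0.0729) and C1qb (-0.30 ± 0.07, adjusted p = 0.0392) and the lipid receptor Trem2 (-0.30 ± 0.08, adjusted p = 0.059) were lower too. These 3 calls and that of Cx3cr1 did not hold in every fit with a library left out. The call of Cx3cr1 was lost without mouse 2, 22 or 40 (-0.28 to -0.20), that of C1qa lost without mouse 2, 17, 30 or 40 (-0.34 to -0.22), that of C1qb lost without mouse 2, 17, 30 or 40 (-0.35 to -0.24), and that of Trem2 lost without mouse 2, 17, 22, 30 or 40 (-0.36 to -0.22). The length and GC correction ended the calls of C1qa and C1qb and left 5 markers called. Those of C1qa and Trem2 were also lost by edgeR on the 8 caffeine libraries, and that of Trem2 with thinned counts, where 6 markers were called. Tmem119, another microglial marker, did not pass the test (0.07, adjusted p = 0.631). The summed level of the 12 was 572 to 614 CPM in home cage and 490 to 563 CPM in learning mice, and no marker was at 0. The count called was 4 without mouse 17 or 22, 3 without mouse 30, 2 without mouse 2 or 40, and 2 without both 17 and 30. Under water none passed the test and the median was -0.10. Immune genes outside the list fell too. Cd180, a Toll-like receptor relative, was at 3.56, 2.67, 3.49 and 3.68 CPM in home cage and 1.81, 1.52, 1.57 and 1.77 CPM in learning mice (-1.02 ± 0.15, adjusted p = 0.00222). Klhl6, a gene of lymphoid and myeloid cells, was at 3.03, 3.19, 2.16 and 3.04 CPM in home cage and 1.79, 1.33, 1.57 and 1.2 CPM in learning mice (-0.95 ± 0.15, adjusted p = 0.00393). B2m, the light chain of class I molecules, fell (-0.32 ± 0.07, adjusted p = 0.0231), as did Psmb8 of the immunoproteasome (-0.50 ± 0.15, adjusted p = 0.0798) and Ifitm3, which blocks viral entry (-0.46 ± 0.14, adjusted p = 0.0806). The call of Psmb8 was lost without mouse 2, 9, 17, 30, 33 or 40 (-0.57 to -0.40), and that of Ifitm3 lost without mouse 2, 9, 17, 22, 27, 33 or 40 (-0.55 to -0.38). Those of B2m and Ifitm3 were also lost with the length and GC correction. Ifit1bl2 rose (0.70 ± 0.21, adjusted p = 0.0868) with a call lost without mouse 2, 9, 14, 17, 22, 27, 30, 33, 36 or 40 (0.61 to 0.76), which gives 3 falls and 1 rise among 44 interferon-induced genes. These shares are 6.82% and 2.27%, against 2.13% and 3.16% of all genes.

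Markers of myelin and of border tissues were also below their home cage level, mostly without passing the test. All 12 oligodendrocyte markers had fold changes below 0 under caffeine (median -0.41) and 1 was called, Opalin, at 52.5, 54.6, 33.2 and 49.3 CPM in home cage and 36.2, 28.3, 22 and 24.8 CPM in learning mice (-0.77 ± 0.23, adjusted p = 0.0871), whose call was lost without mouse 2, 9, 17, 20, 27, 30, 33 or 40 (-0.90 to -0.67). The summed level of the list was 5660 to 9600 CPM and 5380 to 7550 CPM. Under water the list median was 0.21. There the summed level was 12800 CPM in learning water mouse 24 and 6340, 5530 and 5550 CPM in mice 33, 36 and 38. Home cage water mice had 5580 to 7960 CPM. The part of mouse 24 in the list median under water was not tested. Choroid plexus markers had a median of -0.61 under caffeine and -1.19 under water, with 0 and 6 of 14 called lower, and summed levels of 462 to 947 CPM in home cage and 299 to 470 CPM in learning caffeine mice. Home cage water mice 6, 8, 11 and 20 summed to 597, 1670, 1410 and 3200 CPM. Learning water mice summed to 397 to 898 CPM. Ependymal markers (9 tested, median -0.64) and meningeal markers (10, median -0.24) were all below 0 without a call, at 40.5 to 72.2 CPM against 28.5 to 52.6 CPM for ependyma. How far the share of these tissues in each piece bears on other genes was not tested.

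A few patterning and collagen genes fell: 2 of 48 Wnt ligands, receptors and modulators (4.17%), 2 of 5 Zic factors and 3 of 44 collagens (6.82%), against 2.13% of all genes. Wnt9a, a Wnt ligand, was at 10.1, 11.9, 19.2 and 16.9 CPM in home cage and 5.12, 6.75, 4.41 and 8.98 CPM in learning mice (-1.21 ± 0.25, adjusted p = 0.0191). Fzd5, a Wnt receptor, fell from a low level (-0.69 ± 0.18, adjusted p = 0.0545), with a call lost without mouse 9, 17, 22 or 30 (-0.79 to -0.58). Zic1, a zinc finger factor of thalamus and meninges in the adult brain, was at 21.7, 34, 14.8 and 20.2 CPM in home cage and 7.49, 10.7, 12.2 and 11.6 CPM in learning mice (-1.1 ± 0.28, adjusted p = 0.0437). Zic4, a neighbour that overlaps Zic1, was at 4.22, 6.76, 3.61 and 4.46 CPM in home cage and 1.41, 3.11, 2.79 and 2.32 CPM in learning mice (-0.96 ± 0.25, adjusted p = 0.0459). Home cage mouse 9 was highest in both. The call of Zic1 was lost without mouse 9 or 22 (-1.25 to -0.84), and that of Zic4 lost without mouse 9, 22 or 40 (-1.10 to -0.75). Thalamus markers, which include these genes, gave 3 falls in 11 (27.3%), with a summed level of 154 to 216 CPM in home cage and 146 to 173 CPM in learning mice. Of the 11, 4 had a fold change above 0, and in 1 the learning mice lay wholly above the home cage mice. Besides Zic1 and Zic4, the fall called was that of Plekhg1, lost without mouse 2, 9, 11, 17, 27, 30, 36 or 40 (-0.45 to -0.27). Among 44 collagens, Col22a1 fell from 5.46, 5.08, 7.78 and 6.39 CPM to 3.65, 4.11, 3.83 and 3.66 CPM (-0.70 ± 0.12, adjusted p = 0.00645), and Col9a1 (-1.17 ± 0.31, adjusted p = 0.0532) and Col6a3 (-1.07 ± 0.31, adjusted p = 0.0768) fell from low levels. The call of Col9a1 was lost without mouse 9, 17, 22, 30 or 40 (-1.26 to -1.02), and that of Col6a3 lost without mouse 2, 9, 17, 22, 30 or 40 (-1.28 to -0.89). Lrrc29, an F-box protein gene, was at 2.3, 2.8, 2.87 and 3.68 CPM in home cage and 1.28, 1.46, 1.18 and 1.36 CPM in learning mice (-1.14 ± 0.19, adjusted p = 0.00447). Ccno, a cyclin-like protein of ciliated cells, was at 2.91, 2.93, 3.41 and 3.63 CPM in home cage and 1.57, 1.97, 1.34 and 1.99 CPM in learning mice (-0.91 ± 0.15, adjusted p = 0.00477). Heyl, a Notch effector (-0.78 ± 0.19, adjusted p = 0.0409), the transcription factor Nfe2l3 (-0.74 ± 0.21, adjusted p = 0.0647), the slow muscle troponin gene Tnni1 (-0.86 ± 0.24, adjusted p = 0.0632), BC067074 (-0.92 ± 0.23, adjusted p = 0.042) and C130074G19Rik (-0.80 ± 0.16, adjusted p = 0.0163) belong to the same group of large falls. So do Gm42418 (-0.81 ± 0.15, adjusted p = 0.00987), Gm13293 (-0.81 ± 0.25, adjusted p = 0.0905) and Gm10687 (-1.002 ± 0.22, adjusted p = 0.0256). The call of Heyl was lost without mouse 17 (-0.90 to -0.60), that of Nfe2l3 lost without mouse 9, 17, 22, 27, 30 or 40 (-0.85 to -0.63), that of Tnni1 lost without mouse 2, 9, 17, 22, 27, 30 or 40 (-0.98 to -0.74), that of BC067074 lost without mouse 9 or 40 (-1.04 to -0.69), and that of Gm13293 lost without mouse 2, 9, 11, 17, 20, 22, 27, 30, 33 or 40 (-0.85 to -0.72). Gm42418, which overlaps ribosomal RNA sequence, was highest in mouse 17, at 41.1 CPM.

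Fbxo32, the ubiquitin ligase atrogin-1 that FOXO factors induce in muscle, fell from 31.5, 33.6, 30.6 and 26.6 CPM to 18.4, 15.2, 17.2 and 22.6 CPM (-0.74 ± 0.13, adjusted p = 0.00514). It was the only fall among 59 ubiquitin ligases and deubiquitinases, of which 5 rose, Rnf19a by the largest step (0.41 ± 0.09, adjusted p = 0.0209). In this list 1.69% fell and 8.47% rose, against 2.13% and 3.16% of all genes. The neuropeptide genes Pnoc (-0.43 ± 0.10, adjusted p = 0.0322) and Penk (-0.36 ± 0.10, adjusted p = 0.055) fell, out of 27 (7.41%, against 2.13% of all genes). The call of Pnoc was lost without mouse 17 or 30 (-0.49 to -0.38), and that of Penk lost without mouse 2, 17, 22, 30 or 40 (-0.41 to -0.32). Genes of energy production had small fold changes, mostly below 0: 75 of 86 nuclear genes of oxidative phosphorylation had a fold change below 0 (median -0.16), where 9440 of all 17830 tested genes did. Only 2 passed the test as lower, Ndufa11 (-0.29 ± 0.09, adjusted p = 0.083) and Sdhc (-0.22 ± 0.06, adjusted p = 0.0658), and 1 as higher, Atp5g1 (0.29 ± 0.08, adjusted p = 0.074). These shares of 2.33% and 1.16% are near or under the 2.13% and 3.16% of all genes. The call of Ndufa11 was lost without mouse 2, 9, 11, 17, 22, 30, 33, 36 or 40 (-0.34 to -0.19), that of Sdhc lost without mouse 2, 11, 17, 22, 30 or 40 (-0.24 to -0.18), and that of Atp5g1 lost without mouse 2, 17, 30 or 40 (0.25 to 0.36). Under water the median of this list was -0.11. All 7 mitochondrially encoded subunits tested were below 0 (median -0.14), without a call. Translation factors gave 4 rises, among them the repressor Eif4ebp2 (0.33 ± 0.06, adjusted p = 0.00829), the cap-binding protein Eif4e3 (0.28 ± 0.05, adjusted p = 0.0122) and the kinase Mknk2 (0.26 ± 0.06, adjusted p = 0.0411), and 1 fall in 55. That is 7.27% and 1.82%, against 3.16% and 2.13% of all genes. Cytosolic ribosomal protein genes gave 18 falls in 84 (21.4%, against 2.13% of all genes) and are not described further. Of the 8 called lower genes of highest level besides Gfap, Rps3 (-0.24 ± 0.06, adjusted p = 0.0386), Rpl8 (-0.23 ± 0.07, adjusted p = 0.0762) and Rack1 (-0.18 ± 0.06, adjusted p = 0.0963) are ribosomal, and Ptn (-0.23 ± 0.06, adjusted p = 0.0451), a growth factor, Hnrnpdl (-0.26 ± 0.07, adjusted p = 0.0509), AI593442 (-0.28 ± 0.07, adjusted p = 0.0442) and Rsrp1 (-0.26 ± 0.08, adjusted p = 0.0959) are not. All 7 calls were fragile: that of Rps3 was lost without mouse 17 or 30 (-0.27 to -0.21), that of Rpl8 lost without mouse 2, 9, 17, 22, 30 or 40 (-0.27 to -0.16), that of Rack1 lost without mouse 2, 6, 8, 9, 11, 17, 20, 22, 30, 33, 36, 38 or 40 (-0.20 to -0.12), that of Ptn lost without mouse 9, 17, 22 or 40 (-0.26 to -0.19), that of Hnrnpdl lost without mouse 2, 17, 22, 27 or 30 (-0.32 to -0.20), that of AI593442 lost without mouse 17, 22 or 30 (-0.31 to -0.24), and that of Rsrp1 lost without mouse 2, 6, 8, 11, 14, 17, 20, 22, 27, 30, 33, 36, 38 or 40 (-0.33 to -0.17).

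The response under caffeine was then set beside that under water. Training called 114 genes higher (0.639%) and 59 lower (0.331%) in water mice. Of the 563 genes higher under caffeine, 552 also had a fold change above 0 under water, at a median of 0.21, and 92 were called there. Of the 379 lower genes, 335 were below 0 under water, at a median of -0.15, and 17 were called lower and 1 higher. The larger number of calls under caffeine does not show a difference, which was tested directly: no gene of 17830 was called for the difference between the responses (0%), and the smallest adjusted p was 0.359 (edgeR). Of the 17830 genes, 648 had an unadjusted p under 0.05 (edgeR), a share below 0.05. Of these, 51 were among the higher and 111 among the lower genes. Those genes were chosen by their response under caffeine, which enters the difference, so the choice itself raises both counts. DESeq2 on the 16 libraries called 6 genes, and edgeR called 1 without home cage caffeine mouse 14 and 1 without learning water mouse 38. The calls under water went from 173 to 312 without home cage caffeine mouse 17, 109 without mouse 30, 98 without mouse 38, 54 without mouse 33, 47 without mouse 11, 38 without mouse 20 and 37 without mouse 36.

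Some named genes had a wide gap between the responses, each without a call. Of those given here, Etnppl, Acer2, Depp1 and Fmo2 were named for a large change under caffeine, and Dusp16, Gfap and Gjb6 were called there. That change enters the difference, so the choice itself widens these gaps. The unadjusted p-values below (edgeR) therefore do not show that the responses of these genes differ. Etnppl was at 24.1, 18.2, 17.9 and 25.4 CPM in home cage water and 24.1, 23.3, 23.5 and 20.5 CPM in learning water mice, so its log2 fold change was 1.52 under caffeine and 0.10 under water (difference 1.43, unadjusted p = 0.00276, adjusted p = 1). Part of that gap lay in the home cage, where caffeine mice had 11.8, 13.7, 9.85 and 17 CPM. Acer2 went from 10.7, 7.33, 5.58 and 7.25 CPM to 8.77, 11.1, 8.89 and 8.93 CPM under water (difference 1.05, unadjusted p = 0.00223, adjusted p = 1). Depp1 went from 2.14, 0.956, 1.14 and 1.37 CPM to 2.4, 2.92, 2.44 and 1.34 CPM (difference 1.55, unadjusted p = 0.00659, adjusted p = 1). Fos had the larger fold change under water, from 1.59, 3.09, 2.21 and 3.12 CPM to 11.6, 12.1, 16.3 and 13.1 CPM (2.39 against 1.57, difference -0.82, unadjusted p = 0.00863, adjusted p = 1). Its home cage values were lower in water than in caffeine mice, while the learning values overlapped. Fmo2 (difference 1.16, unadjusted p = 0.0152, adjusted p = 1), Dusp16 (difference -0.43, unadjusted p = 0.00272, adjusted p = 1), Gfap (difference -0.35, unadjusted p = 0.00616, adjusted p = 1) and Gjb6 (difference 0.37, unadjusted p = 0.00595, adjusted p = 1) had the larger change under caffeine. Differences closer to 0 were measured for Egr2 (difference -0.30, unadjusted p = 0.471, adjusted p = 1), Egr1 (difference -0.07, unadjusted p = 0.654, adjusted p = 1), Per1 (difference -0.01, unadjusted p = 0.93, adjusted p = 1), Per2 (difference 0.07, unadjusted p = 0.625, adjusted p = 1) and Dnajb5 (difference -0.02, unadjusted p = 0.85, adjusted p = 1).

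**Figure D5:**
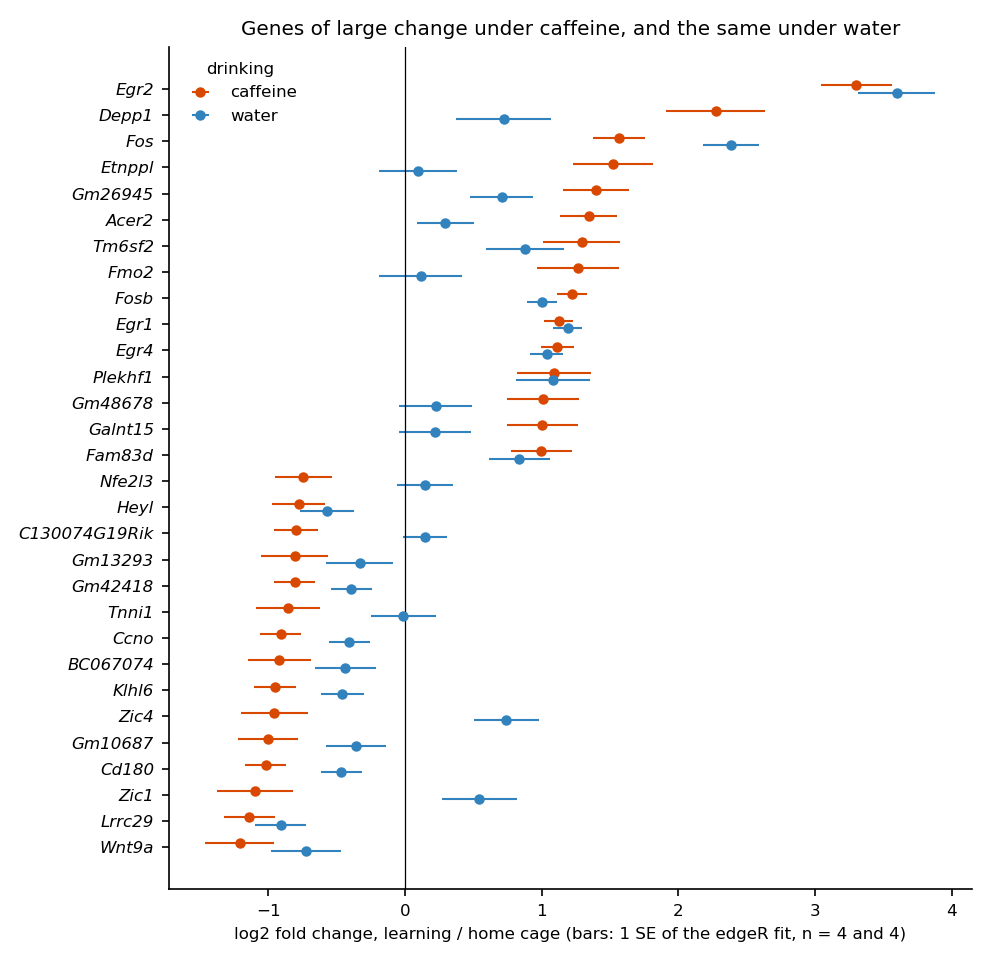
Log2 fold change of learning over home cage mice under caffeine (orange) and water (blue) for the called genes of large change whose groups did not overlap, 15 on each side, with bars of 1 standard error of the edgeR fit. Egr1 (1.12 and 1.19) has near-equal values, Fos (1.57 and 2.39) and Etnppl (1.52 and 0.10) do not, and Zic4 (-0.96 and 0.74) has opposite signs.

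Genes with the smallest unadjusted p for the difference among the called ones were Cnmd, Clspn and Zic4. Clspn, an adaptor of the DNA replication checkpoint, was at 2.5, 1.68, 2.61 and 2.2 CPM in home cage and 0.613, 0.921, 0.742 and 1.04 CPM in learning caffeine mice (-1.45 ± 0.20, adjusted p = 0.00149), and at 1.59, 1.5, 1.52 and 1.21 CPM in home cage water and 1.28, 1.1, 1.71 and 1.73 CPM in learning water mice (difference -1.46, unadjusted p = 7.67e-05, adjusted p = 0.446). The water groups overlapped each other. Cnmd, a cartilage matrix protein, was at 1.41, 2.67, 0.823 and 1.56 CPM in home cage and 0.56, 1.01, 0.662 and 0.518 CPM in learning mice under caffeine (-1.18 ± 0.32, adjusted p = 0.0625) and at 0.992, 1.05, 1.07 and 0.86 CPM in home cage and 3, 3.2, 2.75 and 1.4 CPM in learning mice under water (difference -2.57, unadjusted p = 2.01e-05, adjusted p = 0.359). The first change points down and the second up, and the call under caffeine was lost without mouse 9, 17, 22, 30 or 40 (-1.42 to -0.86). Zic4 was at 3.93, 3.54, 2.65 and 4.14 CPM in home cage water and 7.99, 4.38, 4.93 and 6.55 CPM in learning water mice (difference -1.7, unadjusted p = 1.09e-04, adjusted p = 0.446), and meningeal markers summed to 291 to 510 CPM in home cage and 293 to 574 CPM in learning water mice. The part of such tissue in these differences was not tested.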

How the data were processed

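Poly(A)-selected, stranded RNA libraries of the dorsal hippocampus of single mice were sequenced by the authors as single-end reads (bcl2fastq 2.17.1.14), aligned to mm10 with STAR, and counted per Ensembl gene with HTSeq 0.6.1p1 in union mode on unique reads. Whether counting used strand is not given in the sources used here. The deposited table holds raw read counts of 35328 genes in 16 libraries. Total counts were 23078094 to 49949281 per library, and every column was matched to its mouse by the labels.

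The counts were tested with the quasi-likelihood test of edgeR 4.0.16 (R 4.3.3, limma 3.58.1) on all 16 libraries with TMM scaling, 4 groups and the default expression filter, which left 17830 genes. Contrasts were learning against home cage under caffeine, the same under water, and their difference. Genes were called at an adjusted p under 0.1 (Benjamini-Hochberg over all tested genes). CPM values are counts over TMM-scaled library totals. The script was tested on simulated data.

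Members and lists were chosen with earlier results of these data known. Named genes are those called with the largest fold changes, 15 up and 15 down, among genes whose average log2 CPM reached 1 and whose groups did not overlap; those called with the highest levels, 8 up and 8 down; the 5 of smallest p; the 3 called genes of smallest p for the difference; members of 61 lists (46 gene lists and 15 marker lists); Egr2, Depp1, Fos, Fosb, Xbp1, Vegfa and Acss1. A few genes that these rules take are not reported here and were left out of the counts over named genes. Alternatives were DESeq2 1.42.0, other size factors, filters, robust fitting, thinned depth, a correction for length and GC content, an adjusted p under 0.05, and leaving out each library. Promoters were read from RefSeq (GRCm38.p6).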

Additional observations from a re-analysis of the deposited data

Results flagged for a closer look

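In a number of named or listed genes called under caffeine, 1 of the 4 mice of a group lay far from the other 3 by Dixon's test. Of 438 groups of 4 mice examined over 219 genes, 26 had such a mouse, where chance alone gives about 1 in 20. Home cage mouse 17 was the distant one in 7 and learning mouse 27 in 6, learning mouse 22 in 3, and home cage mice 2, 9 and 14 and learning mice 30 and 40 in 2 each. Home cage mouse 2 stood apart in Gm26945 (2.28 CPM, others 1.31 to 1.34) and Plekhf1 (2.91 CPM, others 2.09 to 2.15). Home cage mouse 14 stood apart in Klhl6 (2.16 CPM, others 3.03 to 3.19) and Pde7a (36.2 CPM, others 33.3 to 33.7). Home cage mouse 17 stood apart in Gm42418 (41.1 CPM, others 22.8 to 25.7), Cx3cr1 (62.1 CPM, others 67.5 to 68.5), Spred1 (111 CPM, others 130 to 134), Hif3a (4.52 CPM, others 2.71 to 2.84), Kdm5c (47.7 CPM, others 58.6 to 59.8), Rbfox2 (254 CPM, others 286 to 290) and Rps20 (32.5 CPM, others 30.2 to 30.5). Learning mouse 22 stood apart in Gm42418 (13.9 CPM, others 17 to 17.3), Plekhg1 (31.7 CPM, others 23.5 to 24.2) and Dusp2 (0.346 CPM, others 0.502 to 0.518). Learning mouse 40 stood apart in Heyl (1.28 CPM, others 2.27 to 2.45) and Nedd4l (242 CPM, others 220 to 224). Learning mouse 27 stood apart in Rsrp1 (301 CPM, others 326 to 329), Sik2 (24.6 CPM, others 29.5 to 30.1), Map3k6 (3.45 CPM, others 3.09 to 3.11), Ndufa11 (57.7 CPM, others 53 to 53.6), Psmb6 (93 CPM, others 84.9 to 85.9) and Penk (34.3 CPM, others 30 to 30.4). Home cage mouse 9 stood apart in Dnajb1 (46.2 CPM, others 41.6 to 41.8) and Ifitm3 (8.44 CPM, others 6.61 to 6.73). Learning mouse 30 stood apart in Kdm3a (50.7 CPM, others 52.3 to 52.6) and Rps9 (67.5 CPM, others 71.7 to 72.5).

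The response of Zic4 to training had opposite signs under caffeine and water: every learning caffeine mouse was below every home cage caffeine mouse, and every learning water mouse was above every home cage water mouse. The difference between the log2 fold changes was -1.70 (edgeR, unadjusted p = 1.09e-04), which did not pass the correction over all tested genes.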

How the results depend on the processing

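No paired analysis was possible because the mouse numbers of the groups do not overlap. Of the calls and values of named genes, none changed direction under any alternative: 4652 kept their side of the threshold, 1014 lost it and 22 gained it. DESeq2 on the 16 libraries gave 982 higher and 587 lower genes, 428 under water, 6 for the difference and 11 genes of the unfolded protein response (10 by DESeq2 on the 8 libraries, 9 with the length and GC correction). At an adjusted p under 0.05 there were 293 higher and 156 lower genes, 70 under water, 4 clock genes and 4 microglia markers. edgeR on the 8 libraries alone gave 352 higher genes and 4 microglia markers. With at least 1 count in total as the only filter, 290 genes were called under water and 9 for the difference. Without both mouse 17 and mouse 30 there were 127 higher and 50 lower genes, 3 clock genes, 2 microglia markers, 1 gene of the unfolded protein response and 14 immediate early and effector genes. Of the 563 higher and 379 lower genes, 119 and 46 were still called in that setting. Leaving out 1 library at a time gave 249 to 729 higher and 125 to 534 lower genes, 37 to 312 under water, 0 to 1 for the difference, 9 to 15 glucocorticoid response genes, 4 to 8 clock genes, 2 to 7 microglia markers, 3 to 9 genes of the unfolded protein response and 20 to 28 immediate early and effector genes. Among the called genes named here, the length and GC correction ended the calls of Stum, Slc6a17, Tub, Gm13293, Rsrp1, Rpl8, C1qa, C1qb, Arid5b, Dusp2, Hlf, Foxo3, Hdac4, Ndufa11, Pfkfb3, Penk, Ifitm3 and B2m. edgeR on the 8 libraries alone ended those of Fmo2, Slc6a17, Fam107a, Pygb, Heyl, Rsrp1, Rpl8, Hnrnpdl, Rack1, Cnmd, C1qa, Trem2, Plekhg1, Maff, Ep300, Ciart, Dnajb4, Kdm5c, Ndufa11, Atp5g1, Psmb8, Pfkfb3, Fzd5, Ifitm3, Ifit1bl2 and Six3os1. Thinning to the smallest library ended those of Slc6a17, Nfe2l3, Rsrp1, Trem2, Maff, Atp5g1, Psmb8, Ifit1bl2, Col9a1 and Rpph1, and testing every gene with any count those of Slc6a17, Pygb, Rack1, Trem2, Dnajb4, Sdhc, Psmb8 and Ifit1bl2. The cause of these shifts was not tested. With 4 mice per group and a median standard error of 0.10, small changes were at the limit of what could be called.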

Other observations

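Several genes of fuel choice and stress had learning caffeine mice 22 and 27 above mice 30 and 40, as Etnppl, Sgk1 and Tsc22d3 did. They did not pass the test in edgeR on the 16 libraries and were picked after their values were seen. Txnip, an inhibitor of glucose uptake, was at 23.4, 25.3, 22.7 and 21.6 CPM in home cage and 37.9, 37, 25.6 and 23.4 CPM in learning mice (0.42 ± 0.15, adjusted p = 0.148, edgeR). Pdk4, a kinase that shuts pyruvate out of the citrate cycle, was at 10.9, 10.1, 11.3 and 10.0 CPM in home cage and 16, 14.4, 11.4 and 10.2 CPM in learning mice (0.30 ± 0.11, adjusted p = 0.167, edgeR). Arrdc2, an arrestin domain protein, was at 12, 13.4, 10.7 and 14.3 CPM in home cage and 22.6, 20.7, 13.7 and 13.8 CPM in learning mice (0.49 ± 0.20, adjusted p = 0.203, edgeR). DESeq2 on the 8 caffeine libraries called Txnip and Arrdc2. In Txnip, Pdk4 and Arrdc2, mice 22 and 27 lay above every home cage mouse, and mice 30 and 40 lay within or near the home cage values. In Etnppl, Sgk1 and Tsc22d3, by contrast, mice 30 and 40 also lay above every home cage mouse.

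Among called genes that the rule does not name, also picked after their values were seen, Rn7sk, the RNA of the 7SK particle that holds back transcription elongation, was at 9.72, 1.25, 3.69 and 20.3 CPM in home cage and 1.23, 0.728, 2.03 and 1.56 CPM in learning mice (-2.67 ± 0.64, adjusted p = 0.0359, edgeR; lost without mouse 17 (-3.01 to -1.85)). Rpph1, the RNA of ribonuclease P, was at 1.55, 0.474, 1.11 and 2.96 CPM in home cage and 0.267, 0.171, 0.502 and 0.409 CPM in learning mice (-2.19 ± 0.56, adjusted p = 0.0439, edgeR; lost without mouse 17 or 22 (-2.48 to -1.67)). Both RNAs lack a poly(A) tail, vary widely among the home cage mice and are highest in mouse 17. Six3, a homeobox gene of the ventral forebrain, was at 0.533, 0.905, 0.199 and 0.67 CPM in home cage and 0.213, 0.129, 0.14 and 0.109 CPM in learning mice (-1.9 ± 0.48, adjusted p = 0.042, edgeR; lost without mouse 17, 30 or 40 (-2.19 to -1.65)), and its exons overlap those of Six3os1. Six3os1 was at 0.8, 2.24, 0.568 and 0.419 CPM in home cage and 0.08, 0.214, 0.181 and 0.464 CPM in learning mice (-2.02 ± 0.56, adjusted p = 0.0646, edgeR; lost without mouse 9, 22, 27 or 30 (-2.50 to -1.37)).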
